A study of Mus musculus with 5 samples.

Results

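The 10 genes described here are classical markers of the alveolar type 1 (AT1) cell of the mouse lung, namely Ager, Aqp5, Hopx, Pdpn, Cav1, Cav2, Emp2, Rtkn2, Clic5 and Akap5. NKX2-1 binding around them was read from ChIP-seq, the sequencing of DNA recovered with an antibody, in formalin-fixed whole lung. The mice were wild-type and at postnatal day 10. The tissue was immunoprecipitated with 4 antibodies against NKX2-1 (Abcam133737, Millipore07-601, Abcam76013 and Abcam133638), with 1 library each and 1 input library, and no group differs in genotype, age or treatment. Per the labels' protocol sonicated chromatin was pooled, and all 4 peak lists name the same input, so the antibody libraries cannot be taken as separate animals. A peak was taken when its summit lay inside one of the 10 genes or within 20 kb of it in the RefSeq annotation. Peaks of the 4 lists that overlapped by at least 1 bp were merged into a region, and each region was classed by how many of the 4 lists contributed to it. This gave 323 peaks in 115 regions, of 68919 regions in the genome, around 10 of 21631 protein-coding genes.

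AT1 cells are thin, wide epithelial cells that cover most of the gas exchange surface, and alveolar type 2 (AT2) cells, their cuboidal neighbours, make surfactant. NKX2-1 is a homeodomain transcription factor present in lung epithelium from its specification onward, and it binds DNA at sites built on the core CAAG. The series title names its role in the development and maintenance of AT1 cells. The markers are known for different tasks: Ager, Pdpn and Emp2 encode membrane proteins, Aqp5 a water channel, and Clic5 a chloride intracellular channel protein tied to the cortical cytoskeleton. Cav1 and Cav2 encode the coat proteins of caveolae. Akap5 and Rtkn2 encode signalling scaffolds, and Hopx encodes an atypical homeodomain protein that does not itself bind DNA. Several of them are also active in other lung cells, Cav1 and Cav2 in endothelium and Pdpn in lymphatic vessels and mesothelium. In whole lung the cells in which a site was bound cannot be told, nor can fewer bound cells be told apart from less binding per cell. Peak lists hold no expression, so the cell composition of the tissue was not checked.

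The 4 libraries held 43031331 to 46547989 tags after the removal of duplicates, and 40877 to 57891 peaks. Each peak carries a fold enrichment, the pileup of tags at the summit over the local background of the scaled input, as the authors' peak caller gave it. The peak caller adds 1 to both the pileup and the background before dividing. The fold is used here to describe and rank peaks, and for a region it was averaged over the antibodies that had a peak there (mean fold). With 1 library per antibody no value has a replicate error and no test was made between antibodies. The exact Clopper-Pearson intervals given at 95% cover counting error only.

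Where NKX2-1 summits fell on a promoter, the sequence shows what lies beneath them. RefSeq promoters (build GRCm38.p6, the coordinates of mm10) were found for 9 of the 10 genes, with 11 start sites, and not for Rtkn2. Summits of all 4 antibodies lay within 250 bases before or 50 bases after a start for 4 of these 9 genes, Ager, Cav1, Cav2 and Hopx, against 20.5% of the 17274 protein-coding genes with a RefSeq promoter. A summit of at least 1 antibody lay there for all 9, against 43.5%. The 250 bases before the start are printed 5′ to 3′ on the strand of the gene for the 3 promoters where all 4 summits lay before the start and, in contrast, for Pdpn, where no summit lay in the printed bases and the only one near the start was a weak one of Millipore07-601, 10 bases past it. Capitals mark every CAAG, or CTTG where the core lies on the other strand.
Ager promoter, chr17:34597600-34597849, plus strand: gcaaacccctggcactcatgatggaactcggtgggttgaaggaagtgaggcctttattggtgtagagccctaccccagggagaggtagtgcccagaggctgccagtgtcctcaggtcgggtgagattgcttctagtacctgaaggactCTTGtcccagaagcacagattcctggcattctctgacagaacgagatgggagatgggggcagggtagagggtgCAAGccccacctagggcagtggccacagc
Cav2 promoter, chr6:17280935-17281184, plus strand: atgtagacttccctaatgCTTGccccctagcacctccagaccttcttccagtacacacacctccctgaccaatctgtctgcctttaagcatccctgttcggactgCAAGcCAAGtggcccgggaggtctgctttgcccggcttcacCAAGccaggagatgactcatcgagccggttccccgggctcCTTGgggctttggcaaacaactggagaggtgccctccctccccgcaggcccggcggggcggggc
Hopx promoter, chr5:77115124-77115373, minus strand: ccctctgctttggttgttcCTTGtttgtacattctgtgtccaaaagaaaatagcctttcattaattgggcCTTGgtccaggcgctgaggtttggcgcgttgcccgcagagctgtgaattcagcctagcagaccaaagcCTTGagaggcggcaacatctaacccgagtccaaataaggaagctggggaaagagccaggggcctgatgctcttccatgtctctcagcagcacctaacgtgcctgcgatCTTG
Pdpn promoter, chr4:143299565-143299814, minus strand: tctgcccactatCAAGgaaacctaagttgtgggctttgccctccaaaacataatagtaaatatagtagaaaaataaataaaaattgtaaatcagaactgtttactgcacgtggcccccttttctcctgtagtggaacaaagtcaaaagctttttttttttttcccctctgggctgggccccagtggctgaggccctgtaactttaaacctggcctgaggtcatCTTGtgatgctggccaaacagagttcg

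Positions are counted from the start site, with the base before it as -1. In the Hopx promoter the 4 summits lay at -121 (Abcam133737), -92 (Millipore07-601), -99 (Abcam76013) and -110 (Abcam133638), around a core at -112 to -109 that is part of the longer string CTCAAG on the other strand. In the Ager promoter they lay at -124, -118, -128 and -106 in the same order, and the nearest core spans -102 to -99. In the Cav2 promoter they lay at -43, -58, -43 and -42, with the nearest core at -64 to -61. This promoter also holds the string CAAGTG at -140 to -135 and an AP-1 string, TGACTCA, at -92 to -86. The short core is common: on either strand it stood in 85.7% of the 21045 RefSeq promoters of this length, including 10 of the 11 promoters of the markers, all but that of Aqp5. Longer strings were rarer, with CTCAAG in 13.1%, CAAGTG in 11.2%, TGANTCA in 6.17% and the TEAD string GGAATG in 11.6% of promoters. GGAATG stood in 0 of the 11 marker promoters and each of the other 3 longer strings in 1. Such a match describes the sequence and is no evidence of a site.

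All 10 markers had at least 1 region with peaks of all 4 antibodies, called a 4-antibody region below. This is 10 of 10 (interval 69.2 to 100%), against 64.8% of all protein-coding genes under the same rule. They had several: the count was 13 at Clic5, 8 at Emp2, 7 at Ager, 5 at Hopx and at Akap5, 4 at Aqp5, at Cav2 and at Rtkn2, 3 at Cav1 and 2 at Pdpn. At least 3 such regions stood near 9 of the 10 genes, all but Pdpn, against 29.9% of all genes. The 4 at Cav2 include the 3 at Cav1, which lie 17.4 to 18.5 kb from Cav2, and only the region at its promoter is nearest to Cav2. Counts and densities in this paragraph are per gene, so the shared regions enter for both. The markers are longer than the typical gene, with a median of 30.1 kb against 17.3 kb, and long genes offer more room. Per 100 kb of gene and flanks, the median was 7.84 4-antibody regions over the markers and 1.8 over all genes. Ager was the densest at 16.1, in a stretch crowded with genes, and Pdpn the sparsest at 2.77. Among all genes the density of Ager stood at percentile 99.2, and those of Pdpn, Rtkn2 and Cav1 at 63.9, 68.2 and 73.3.

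**Figure D1:**
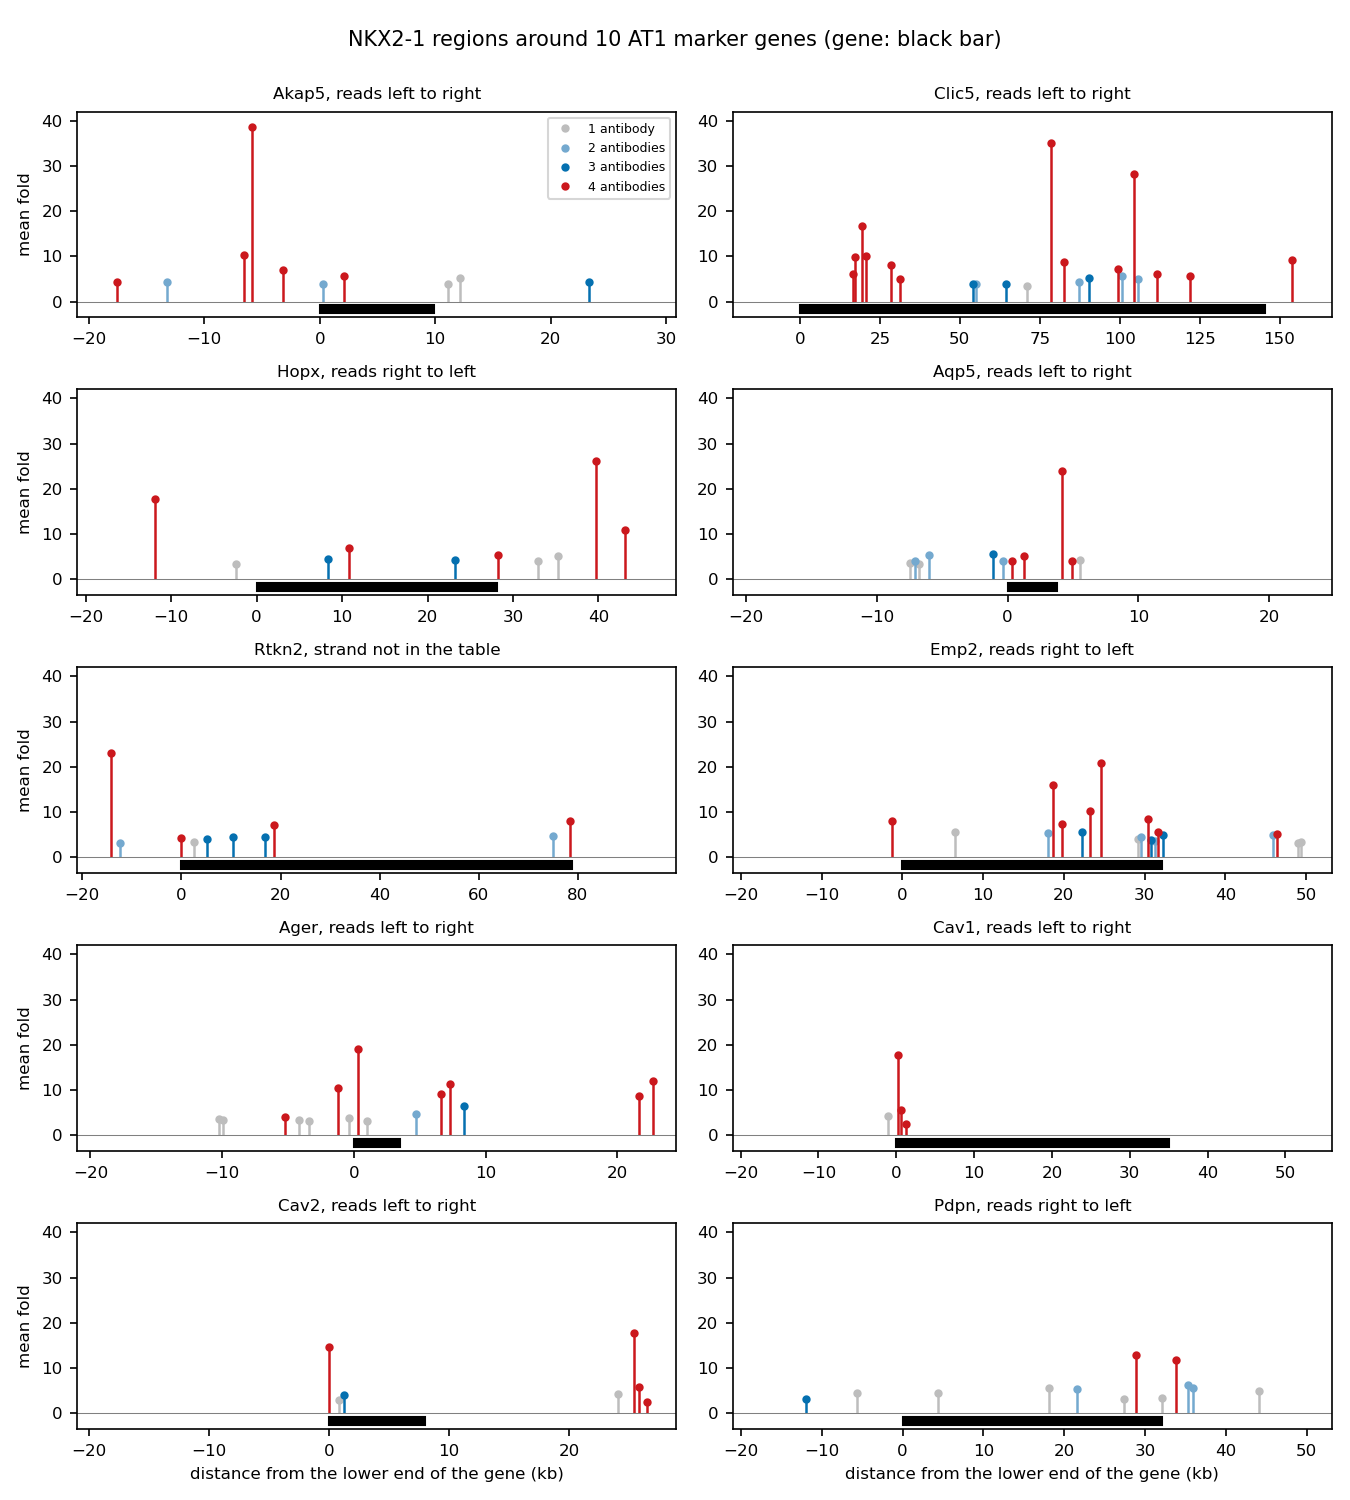
Position of the merged regions around each marker gene, with the distance in kb from the lower-coordinate end of the gene (black bar) on the x axis and the mean fold enrichment on the y axis; the colour gives how many antibodies had a peak. The tallest stems are red, that is 4-antibody regions, at all 10 genes, and reach 38.5 at Akap5 and 13.0 at Pdpn.

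Of the 115 regions, 52 had all 4 antibodies, 16 had 3, 19 had 2 and 28 had 1. Regions around Cav1 and Cav2 are counted once, as the windows of these neighbours share 4 of them. The share with all 4 was 45.2% (35.9 to 54.8), against 45.9% of all regions of the genome. Mean folds of the 4-antibody regions ran from 2.58 to 38.5 with a median of 8.68, against a median of 7.14 over the 31606 of the genome. Of the 52, 29 lay inside the marker gene and 23 outside, 10 lay within 1 kb of one of its ends, and 42 were nearer to a marker than to any other protein-coding gene. Their summits were close together, with a median spread between antibodies of 36.5 bp and a spread of up to 100 bp in 48 of 52. These positions and spreads were not computed for all 4-antibody regions of the genome, so they are not shown to be particular to the markers.

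**Figure D2:**
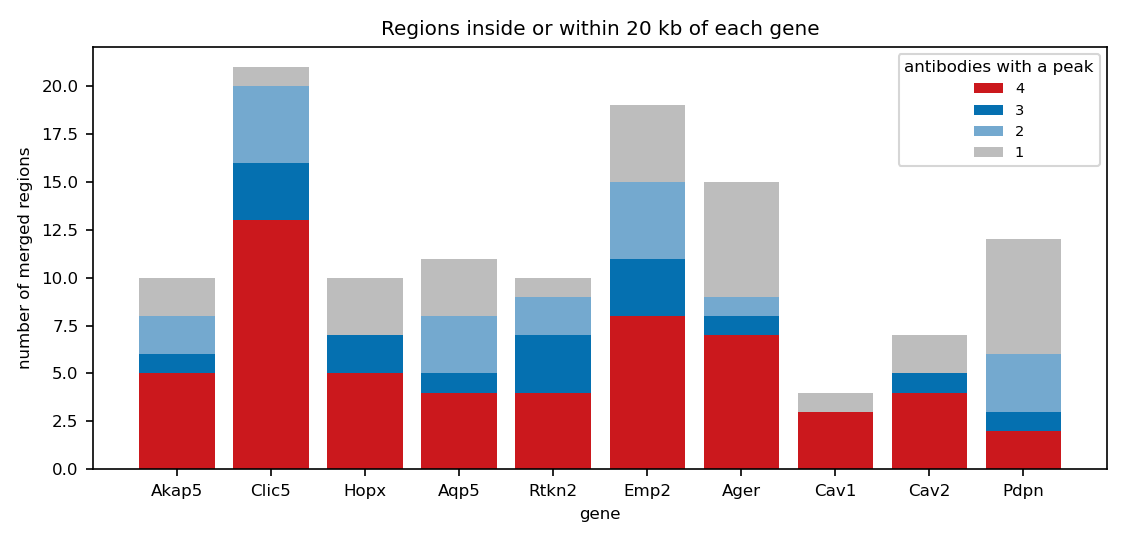
Number of merged regions (y axis) inside or within 20 kb of each marker gene (x axis), stacked by how many antibodies had a peak. Clic5 and Emp2 have the most regions, 21 and 19, and Cav1 the fewest, 4.

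Ager encodes the receptor for advanced glycation end products, which in the lung is abundant on AT1 cells. Its strongest region covered the promoter shown above (mm10, chromosome 17, 34597467 to 34597967), with folds of 14.8, 22.8, 18.9 and 20.1 in the order Abcam133737, Millipore07-601, Abcam76013 and Abcam133638. Millipore07-601 was highest and Abcam133737 lowest. The annotated gene begins 0.39 kb before the start site used for the promoter, so the summits also lie inside the gene. This was the only 4-antibody region inside Ager. The other 6 lay in or beside its neighbours in this gene-dense stretch, where the window touches 7 other protein-coding genes. Among them were one inside Pbx2, 1.21 kb from Ager (mean fold 10.4), and one inside Agpat1, 3.85 kb from Ager on the other side (mean fold 11.3). A pair at the far edge of the window, 18.2 and 19.2 kb away inside Ppt2, had mean folds of 8.67 and 12.1.

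Pdpn encodes podoplanin, a mucin-type membrane glycoprotein also known as T1-alpha. It had the weakest best region of the 10, inside the gene at 3.24 kb past the start (chromosome 4, 143296027 to 143296574), with folds of 11.3, 14.0, 12.4 and 14.2 in the order Abcam133737, Millipore07-601, Abcam76013 and Abcam133638. The libraries were close there. At the second region, 1.66 kb before the start (143301066 to 143301517), they were not: Millipore07-601 gave 18.8, and the others gave 8.44, 9.74 and 9.91. The other 10 regions at Pdpn were called with fewer antibodies, 6 of them with 1, and the one at its start was a peak of Millipore07-601 alone at a fold of 3.38.

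Aqp5 encodes the apical water channel of AT1 cells, which is also found in glands. Its strongest region lay just beyond the end of the gene, 0.328 kb downstream (chromosome 15, 99594795 to 99595666), with folds of 17.9, 30.9, 19.1 and 28.5 in the same order of antibodies. The long-list antibodies, Millipore07-601 and Abcam133638, were thus well above the other two. Inside this short gene of 3.8 kb a pair of weak 4-antibody regions had mean folds of 4.19 and 5.09. The promoter, rich in G and C at 78.4%, held a single summit, of Abcam133737 with a fold of 3.71. The window also takes in Aqp2 and Aqp6, water channel genes on either side, but the strongest region is nearest to Aqp5.

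Clic5 had the most regions of any marker and the highest fold inside a marker gene. The strongest (chromosome 17, 44213153 to 44213728) lay 24.8 kb past the RefSeq start, with folds of 29.4, 45.3, 28.8 and 36.2 in the order Abcam133737, Millipore07-601, Abcam76013 and Abcam133638. By mean fold, 34.9, it ranked 100 of the 31606 4-antibody regions of the genome. Another strong one stood 50.8 kb past the start (44239115 to 44239988), with folds of 22.8, 36.2, 22.5 and 30.8. Of the 13 4-antibody regions 12 lay inside the gene, which spans 145 kb. A group of 6 lay 22.7 to 37.2 kb before this RefSeq start, within the longer annotated gene, whose lower end is 53.8 kb from it. The strongest of that group had a mean fold of 16.7 (44153838 to 44154410). Near the start, 0.248 kb past it, 3 antibodies gave weak peaks, with a mean fold of 3.90.

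Cav1 and Cav2 stand side by side, and caveolin 1 and caveolin 2 form the coat of caveolae together. Their 4-antibody regions gathered at the beginnings of both genes, and none lay elsewhere in the window. At Cav1 the strongest region was 0.224 kb past the first start (chromosome 6, 17306131 to 17306731), with folds of 16.9, 21.2, 16.0 and 16.8 in the same order. At Cav2 a region covered the promoter shown above (17280889 to 17281581), with folds of 13.0, 12.5, 15.6 and 17.7. Here Millipore07-601, which was highest at most other regions, was the lowest. Both genes lie within 20 kb of the Cav1 region, so it is also the best one by the rule for Cav2. With the nearest gene alone the best mean fold of Cav2 is 14.7, that of its own promoter. A second start of Cav1 lay under a weak region with a mean fold of 2.58. There the local background, counted with the added 1, was 1.98 times the genome-wide level. The remaining 4-antibody region, with a mean fold of 5.70, lay between both Cav1 starts.

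Emp2 encodes a tetraspan membrane protein of the PMP22 family. Of its 8 4-antibody regions 6 lay inside the gene, and no other protein-coding gene lies within 20 kb. The strongest was 7.56 kb past the start (chromosome 16, 10306069 to 10306711), with folds of 16.2, 29.6, 16.8 and 21.1 in the order Abcam133737, Millipore07-601, Abcam76013 and Abcam133638. Millipore07-601 again stood apart from the others. A second stood 13.5 kb past the start (10300111 to 10300641) with folds of 13.0, 22.6, 13.0 and 15.7. The region at the start of Emp2 had peaks of 3 antibodies, with a mean fold of 4.96, and none of Abcam76013.

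Akap5 encodes an anchoring protein that holds protein kinase A and other signalling enzymes at the membrane. The strongest region around any of the 10 markers lay 5.86 kb upstream of the gene (chromosome 12, 76318477 to 76319109), with folds of 30.9, 49.3, 33.5 and 40.3 in the same order, and ranked 51 of the 31606 of the genome. It lay inside the neighbouring gene Mthfd1, which encodes an enzyme of folate metabolism, and which of the genes it serves cannot be read from peaks. A region with a mean fold of 10.3 stood beside it at 6.60 kb upstream, also inside Mthfd1. With regions assigned to the nearest gene alone, the best mean fold of Akap5 is 5.67, at a region inside the gene 1.85 kb past its start. Within the 300 bases searched around the start only Abcam133638 had a summit, with a fold of 5.17.

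Rtkn2 encodes rhotekin 2, a signalling scaffold. Its strongest region lay outside the gene, 14.1 kb below its lower end (chromosome 10, 67965168 to 67965657), with folds of 17.3, 31.9, 19.3 and 23.7 in the order Abcam133737, Millipore07-601, Abcam76013 and Abcam133638. No other protein-coding gene was nearer. The other 3 4-antibody regions were weaker, with mean folds of 4.20 at the lower end, 7.06 well inside the gene and 8.02 inside it near the upper end. In a window of 10 kb the best mean fold of Rtkn2 is thus 8.02, as the strongest region falls outside.

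Hopx had its strong regions at a distance on both sides, and weaker ones at its starts. The strongest lay 11.6 kb upstream (chromosome 5, 77126290 to 77127051), with folds of 22.2, 32.1, 21.3 and 29.1 in the same order of antibodies. Another lay 11.9 kb downstream (77074850 to 77075269) with folds of 17.1, 21.8, 13.4 and 18.8. A further distant region, 15.0 kb upstream (77129903 to 77130972), had a high pileup, 83, 117, 89 and 99 tags, but folds of 9.20, 13.3, 9.71 and 11.5. There the local background was 1.87 times the genome-wide level, and by pileup per 10M filtered tags this region, at 21.6, came before the downstream one, at 18.6. The promoter region shown above was weak in comparison, with folds of 4.12, 6.56, 5.68 and 5.17. No other protein-coding gene lies within 20 kb of Hopx. In a window of 10 kb its best mean fold is 6.87, at a region inside the gene.

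**Figure D3:**
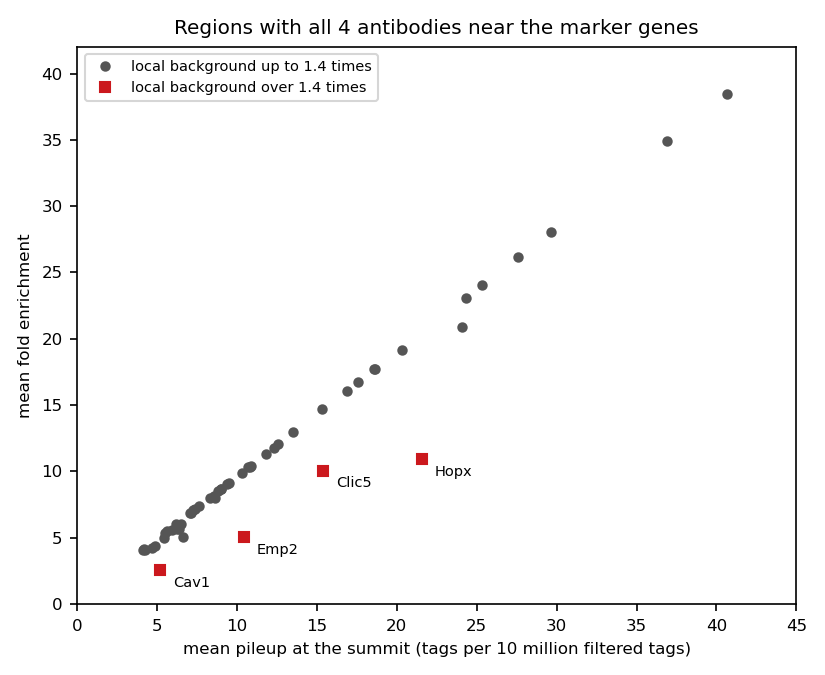
Mean pileup at the summit in tags per 10M filtered tags (x axis) against mean fold enrichment (y axis) for the 52 4-antibody regions near the markers. Most points follow a line, as their fold is a pileup over nearly the same background. The 4 regions at Hopx, Clic5, Emp2 and Cav1 marked by red squares lie below it. Their local background, counted with the added 1, was over 1.4 times the genome-wide level.

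Ordered by the mean fold of the best region, the markers ran from Akap5 (38.5) over Clic5 (34.9), Hopx (26.2), Aqp5 (24.1), Rtkn2 (23.1), Emp2 (20.9), Ager (19.2) and Cav1 and Cav2, which share theirs (17.7), to Pdpn (13.0). The ranges over the 4 libraries overlapped for every pair of neighbours in this order except the last, where the caveolin region was above that of Pdpn. Compared within libraries, Akap5 was above Clic5, Clic5 above Hopx, Hopx above Aqp5 and Rtkn2 above Emp2 in 4 of 4. Emp2 was above Ager, and Ager above Cav1, in 3 of 4. Aqp5 was above Rtkn2 in 2 of 4, so these 2 are not ordered. In all 10 genes the region with the highest mean fold was also the one with the highest mean pileup per 10M filtered tags. The best region lay inside the gene for 5 markers and outside it for the other 5, and within 1 kb of a gene end for 3 (Ager, Aqp5 and Cav1). Where the best region lies was not counted over all genes, so these positions are not shown to be particular to the markers.

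**Figure D4:**
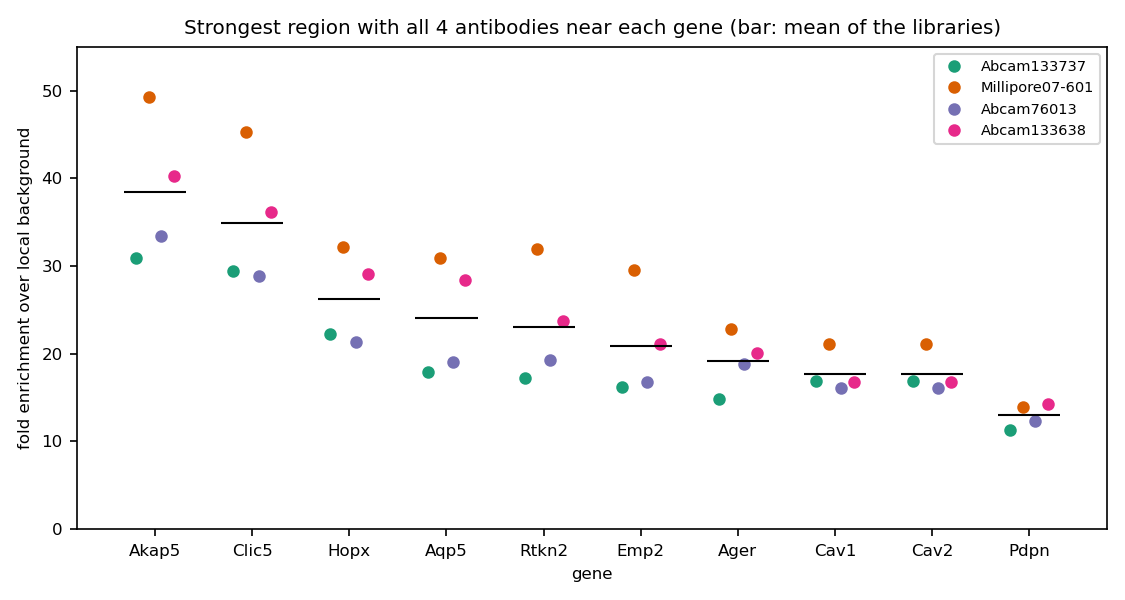
Fold enrichment (y axis) of the strongest 4-antibody region within 20 kb of each marker gene (x axis), with 1 point per antibody library and a bar at their mean. Akap5 reaches 30.9 to 49.3 and Pdpn 11.3 to 14.2, and Millipore07-601 is the highest point in 8 of the 9 different regions.

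Against all genes, the best regions of the markers were strong. Their median best mean fold was 22.0, against 9.65 over the 14013 genes with a 4-antibody region. The best is a maximum over a window, and the markers had a median of 4.5 4-antibody regions against 1 over all genes. That median of 1 includes the genes without such a region, which the 9.65 leaves out. Single 4-antibody regions differed less, with median mean folds of 8.68 near the markers and 7.14 in the genome. How far the number of regions accounts for the stronger best regions was not tested. A best mean fold over 10 was found at 10 of 10 markers (69.2 to 100%), against 30.6% of all genes. Over 15 it was found at 9 of 10 (55.5 to 99.8%), all but Pdpn, against 14.6%, and over 20 at 6 of 10 (26.2 to 87.8%) against 7.1%. Cav1 and Cav2 count here through the same region, and that of Akap5 lies inside Mthfd1. With the nearest gene alone, the best mean fold was 14.7 at Cav2 and 5.67 at Akap5. Among genes with a 4-antibody region Akap5 stood at percentile 99.6, Clic5 at 99.2, Hopx at 95.6, Ager at 87.8 and Pdpn at 70.0. A 4-antibody region lay inside 9 of the 10 genes, all but Cav2, against 36.2% of all genes, and within 1 kb of a gene end for 7 (all but Akap5, Clic5 and Pdpn), against 33.5%. The markers were chosen as known AT1 genes, with earlier results of these data in view, so these shares are a description and no test.

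**Figure D5:**
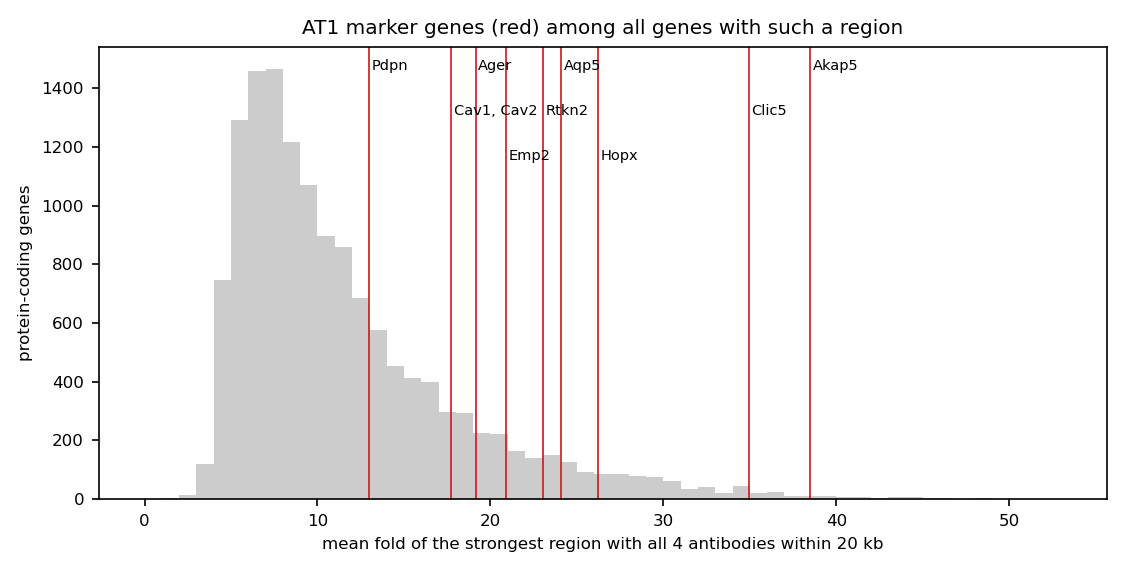
Number of protein-coding genes (y axis) by the mean fold of their strongest 4-antibody region within 20 kb (x axis), with the AT1 markers as red lines. The 10 markers lie between 13.0 and 38.5, above the median of 9.65.

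A peak of Millipore07-601 stood in 86.1% of the 115 regions, of Abcam133638 in 82.6%, of Abcam133737 in 57.4% and of Abcam76013 in 53.9%, against 82.3%, 82.3%, 57.3% and 58.0% of all regions of the genome. Of the 28 regions called with 1 antibody, 14 were of Millipore07-601 (50.0%, against 44.4% in the genome) and 12 of Abcam133638 (42.9%, against 43.5%). Of the 19 called with 2, 15 joined these antibodies (78.9%, against 63.8%). Where 1 antibody was missing it was Abcam76013 in 9 of 16 regions (56.2%) and Abcam133737 in 5 (31.2%). In the genome the order was the other way, with 44.0% and 46.5%, and 16 regions are few. In the 52 4-antibody regions Millipore07-601 gave the highest fold in 38 (73.1%, against 56.4% in the genome) and Abcam133638 in 12 (23.1%, against 39.3%). None of these differences in share was tested. Regions called with fewer antibodies were weak: the highest mean fold was 5.60 with 1, 6.19 with 2 and 6.40 with 3.

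The edge of the window was not an edge of binding. Just inside it, 19.2 kb from Ager, a region had a mean fold of 12.1, and just outside, 20.6 kb from Aqp5 toward Racgap1, another had 21.6. Strong regions a little further out had mean folds of 30.4 at 27.0 kb from Ager inside Ppt2, 23.3 at 23.6 kb from Emp2 toward Tekt5, 25.0 at 24.9 kb from Akap5 inside Mthfd1 and 26.9 at 39.9 kb from Hopx. For Ager the region inside Ppt2 exceeded that of its own promoter.

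Other AT1 genes, from a list of 22 chosen with earlier results known, all had a 4-antibody region within 20 kb (22 of 22, 84.6 to 100%), against 64.8% of all protein-coding genes, the share for every list below. Chosen this way, these 22 do not stand for AT1 genes as a class. Their median best mean fold was 15.3, and 8 of 22 exceeded 20. The highest was shared by Col4a3 and Col4a4, neighbouring genes of basement membrane collagen chains, at 45.2. AT2 genes, which mark the other alveolar epithelial cell, had one in 12 of 12 (73.5 to 100%) with a median of 23.9. Cxcl15 led at 41.3. The surfactant gene Sftpc followed at 34.7, with a region 6.01 kb away inside Lgi3. The AT1 markers, with a median of 22.0, were not above the AT2 genes in these measures, and the difference between the lists was not tested. Endothelial genes had one in 5 of 12 (41.7%, interval 15.2 to 72.3), with a median of 8.37 over those 5. The genes of a list were chosen, not drawn, and can share a region, so its interval is no test against all genes. Car4, a carbonic anhydrase gene, led at 16.2 and Tek followed at 8.84, while Pecam1, Cdh5, Kdr and Tie1 were among the 7 without. Of 7 genes of mesothelium and lymphatic vessels 5 had one (71.4%, interval 29.0 to 96.3), close to the share of all genes, with a median of 5.92. Upk3b led at 12.6, with a region 18.3 kb away inside Dtx2. Msln followed at 7.09, with a region 19.4 kb away that is nearest to Ciao3. Wt1 and Flt4 had none. Regulators linked to AT1 cells all had one, 8 of 8 (63.1 to 100%) with a median of 12.8. Hopx, which is also 1 of the 10 markers and so is counted in both sets, led at 26.2, followed by Nkx2-1 at 23.5. The median number of 4-antibody regions per gene was 6.5 for AT2 genes, 5.5 for the other AT1 genes and for the regulators, and 4.5 for the 10 markers, so several such regions were not particular to the markers.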

How the data were processed

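NKX2-1 ChIP-seq peak lists of 4 antibody libraries from whole lung were used. Per the file headers, the authors ran MACS 2.1.2 on each antibody library with the shared input as control (q limit 0.05, genome size set to 1.87 Gb). Reads had been handled with Bowtie, Trimmomatic, SAMtools, FastQC and deepTools on build mm10, per the submitters' processing notes, and those versions are not given in the sources used here. The deposited lists give per peak the signal (tag pileup at the summit), the fold enrichment as a ratio over local background, and the p-value and q-value as −log10. In the input 10653749 tags remained, scaled up by 4.04 to 4.37, so local background is coarse, and 60.2% to 63.6% of peaks stood at the genome-wide background (tolerance 2%).

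Genes were the protein-coding genes of RefSeq GRCm38.p6 on chromosomes 1 to 19 and X. Peaks were selected by summit and merged with Python 3.11.15, numpy 2.4.6, pandas 2.3.3 and scipy 1.17.1, and the merging was tested on simulated data. The local background of a region is its pileup plus 1 divided by the fold, over the commonest such value of the library. It includes the 1 that the peak caller adds to the background. Ratios above 1 thus understate the rise in the background itself. Pileups were divided by filtered tags. No replicates exist, so no test was run. The members, lists and motifs were chosen with earlier results of these data known. All 10 markers are named, and from each comparison list the 2 genes with the highest best region and up to 4 without one. The gene table gives no exons, and the split into exons and introns was not analysed here. Alternatives covered the peak threshold, list length, window, overlap rule, order of merging, nearest-gene assignment and antibodies.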

Additional observations from a re-analysis of the deposited data

How the results depend on the processing

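All 10 markers kept a region with every antibody in use, 4 or, where 1 was left out, 3. The exception among the 14 alternatives was summits inside the gene only, where Cav2 had none (9 of 10, against 34.5% of all genes). Of all genes, 60.7% had one with a −log10 q of at least 5 and 50.5% with a fold of at least 5. The share was 58.6% with a window of 10 kb and 74.6% with 50 kb. It was not computed for the overlap rules, the order of merging, the nearest gene or the sets of 3 antibodies. With the 10000 peaks of highest fold per list, 10 of 10 still had one, against 27.4% of all genes. The number of regions fell from 52 to 16, as fewer peaks enter. The share with all antibodies was 59.3% there, 44.9% with a −log10 q of at least 5 and 49.3% with a fold of at least 5. Why these shares differ was not tested. The number of regions was 84 with a window of 50 kb and 29 inside the gene only, where the median best mean fold was 13.0 in place of 22.0. These moves follow from the size of the window. Leaving out each antibody in turn, with the 3 others required, gave 10 of 10 markers, 53 to 61 regions, shares of 50.0 to 53.5% and medians of 19.1 to 23.7. Requiring 3 is a looser rule than requiring 4, so it could hardly lose a marker or a region. A wider window and the fold limit of 5 could not lower a best region either, as every best region had folds of at least 11.3. Of 139 best mean folds of single markers under the alternatives, 129 moved by less than the SD of that marker between the 4 libraries, 9 were lower and 1 higher. The lower ones were Hopx, Rtkn2 and Cav2 with 10 kb, Cav2 and Akap5 with the nearest gene, and Aqp5, Hopx, Rtkn2 and Akap5 inside the gene only. The higher one was Ager with 50 kb, at 30.4. Under the fold limit the best regions could not change, so part of the 129 was fixed by the rule. No paired analysis was possible because each antibody has 1 library and no test was run. A region without a peak of some antibody shows only that none passed the q limit at this depth, and with 1 library per antibody no difference between antibodies or genes has a replicate error.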

Other observations

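Of 19 paralogs of the markers, 15 had a 4-antibody region within 20 kb (54.4 to 93.9%, against 64.8% of all genes), with a median best mean fold of 11.3 over those 15. Clic3, a relative of Clic5, led at 24.5, with a region that also lies inside Paxx. Aqp6 and Aqp2 followed at 24.1, but that region is the one at the end of Aqp5. Rtkn, the relative of Rtkn2, had one of 23.1 at 3.53 kb. Cav3, the muscle caveolin gene, and Aqp9 had no peak of any antibody, and Aqp7 and Aqp8 had no 4-antibody region. Aqp4 had a single weak one at 4.76. Rtkn and Aqp4 were named after its value was seen.

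Of the 6 genes of partner proteins in caveolae, 5 had a 4-antibody region (35.9 to 99.6%, against 64.8% of all genes), with a median of 14.5. The difference in share was not tested. Ehd2, an ATPase at the caveolar neck, led at 27.1 and Pacsin2 followed at 16.4. Cavin1, which caveola formation needs, had 13.3 and Cavin2 14.5, and Cavin3 had none. Cavin1 and Cavin2 were named after their values were seen.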
